A study of Mus musculus with 18 samples.

Results

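The genes described here are the writers, erasers, readers and remodellers of chromatin whose symbols begin with Kdm, Kmt, Hdac, Setd, Smarc, Arid, Chd or Brd (followed by a number where the family uses one). The rule was applied to the symbols attached to the 61224 peaks of the larger deposited peak table of an ATAC-seq series, and it found 82 of the 20326 genes that carry a peak. These 82 genes held 433 peaks, of which 67 also carried the symbol of another gene. ATAC-seq counts the places where a transposase can insert into DNA, so the counts measure how open chromatin is near a gene and say nothing direct about its transcript. Among mouse RefSeq genes, 93 symbols fit the rule and 81 of the 82 genes were matched. The exception was Kdm6bos. The table used here covers chromosomes 1 to 19, so Hdac6, Hdac8, Kdm5c, Kdm6a and Smarca1 on X and Kdm5d on Y were not analysed here. Hdac9, Brd8dc and 4 pseudogenes also had no peak in it.

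The series compares 9 libraries of murine peripheral T-cell lymphoma (mPTCL) with 3 libraries each of normal NKT, T and NK cells, all on the C57BL/6 strain. The lymphomas have the p53KO genotype, arose after p53KO T cells were transferred into syngeneic CD3KO hosts, and were sorted from liver. Hosts that lack CD3 have no mature T cells of their own. The normal cells are wild type: CD3+ thy1+ cells of the spleen (T), cells positive for CD3 and the CD1d tetramer loaded with alpha-galactosylceramide (NKT), and CD27- CD11b+ NK cells of the spleen. The labels disagree on the NKT cells, whose titles carry the mark "Sp" used for the spleen libraries while their phenotype says liver. Every library was made from 10000 sorted cells. The lymphomas therefore differ from the normal cells in genotype and transformation at once, and from T and NK cells also in organ. Whether they differ from NKT cells in organ is not settled by the labels. These differences cannot be told apart. Age, sex and the number of mice are not in the labels, so the p-values below measure the spread between these libraries only. Lymphoma libraries are numbered 1 to 9 here in accession order, since the number in each title is not explained.

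Chromatin regulators act in a few ways. Methyltransferases of the Kmt and Setd families write methyl groups on histone lysines, Kdm demethylases remove them, and Hdac deacetylases remove acetyl groups. Brd proteins read acetylated lysines, while Smarc, Arid1, Arid2 and Chd proteins belong to ATP-driven machines that slide or evict nucleosomes. Several of these genes are recurrently mutated in human T-cell and other lymphoid tumours, among them KMT2D, SETD2 and ARID1A.

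The promoters of 6 genes are shown because the results return to them: Smarcal1, Hdac2, Arid4b, Kdm3a and Kdm4c were less open, and Smarcd1 more open, in the lymphomas than in all 3 normal groups. Each line gives the 250 bases before the RefSeq start site on build GRCm38.p6, 5′ to 3′ along the gene, and every window overlaps a deposited peak. Capitals mark the GC box GGGCGG, the CCAAT box and the E box CACGTG, read on either strand. Smarcal1 (chr1:72583001-72583250, plus strand), Hdac2 (chr10:36974294-36974543, plus), Arid4b (chr13:14063534-14063783, plus), Kdm3a (chr6:71632918-71633167, minus), Kdm4c (chr4:74251629-74251878, plus) and Smarcd1 (chr15:99702037-99702286, plus) follow.
Smarcal1: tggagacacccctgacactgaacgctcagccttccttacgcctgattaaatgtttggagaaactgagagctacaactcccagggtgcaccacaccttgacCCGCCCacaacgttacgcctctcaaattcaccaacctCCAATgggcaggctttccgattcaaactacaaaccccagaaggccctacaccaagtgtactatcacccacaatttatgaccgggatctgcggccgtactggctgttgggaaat
Hdac2: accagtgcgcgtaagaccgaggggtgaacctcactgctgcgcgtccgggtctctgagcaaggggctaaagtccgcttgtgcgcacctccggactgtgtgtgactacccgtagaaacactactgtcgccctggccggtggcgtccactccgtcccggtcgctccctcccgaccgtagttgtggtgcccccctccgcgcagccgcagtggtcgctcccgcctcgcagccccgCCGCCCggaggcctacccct
Arid4b: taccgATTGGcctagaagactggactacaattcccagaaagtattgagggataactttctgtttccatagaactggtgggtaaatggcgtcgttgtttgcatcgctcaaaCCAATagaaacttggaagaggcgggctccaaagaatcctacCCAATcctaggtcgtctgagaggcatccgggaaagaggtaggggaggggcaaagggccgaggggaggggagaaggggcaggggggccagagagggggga
Kdm3a: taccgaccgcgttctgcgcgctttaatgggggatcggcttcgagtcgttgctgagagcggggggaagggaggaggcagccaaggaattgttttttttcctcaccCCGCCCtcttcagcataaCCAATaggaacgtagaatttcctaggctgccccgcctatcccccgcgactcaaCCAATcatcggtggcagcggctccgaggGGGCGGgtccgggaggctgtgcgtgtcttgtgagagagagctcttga
Kdm4c: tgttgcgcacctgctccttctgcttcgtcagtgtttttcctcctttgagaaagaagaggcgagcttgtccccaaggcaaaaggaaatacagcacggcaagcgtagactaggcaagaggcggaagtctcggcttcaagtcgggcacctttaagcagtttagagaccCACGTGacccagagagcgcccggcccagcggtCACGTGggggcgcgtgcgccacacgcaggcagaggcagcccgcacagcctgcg
Smarcd1: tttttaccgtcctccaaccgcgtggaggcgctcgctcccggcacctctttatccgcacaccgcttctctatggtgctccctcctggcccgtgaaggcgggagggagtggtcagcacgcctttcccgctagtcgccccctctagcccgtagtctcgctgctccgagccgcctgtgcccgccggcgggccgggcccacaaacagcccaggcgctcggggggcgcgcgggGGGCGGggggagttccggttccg

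RefSeq promoter windows were at hand for 60 of the genes, in 82 entries, and for 58 of these genes at least 1 window overlapped a peak. Their median GC content was 65.2% and the median ratio of observed to expected CpG was 0.842, against 52.4% and 0.373 over all 32851 promoter windows. Open promoters in general lie near these values: the 12168 windows that overlap any peak had medians of 61.6% and 0.76. GGGCGG was found on either strand in 68.3% of the entries, in 32.7% of all windows and in 61.9% of those in a peak. CCAAT was as frequent in the entries (31.7%) as in all windows (33.8%) and in those in a peak (35.3%), and the same held for the ETS core CCGGAAG among open promoters (14.6% against 14.7%, with 6.91% over all windows). CACGTG was held by 1.22% of the entries, which is the single Kdm4c window with its 2 E boxes, against 6.02% of all windows and 8.79% of those in a peak. TGACGTCA, the full cyclic AMP response element, was in none of the entries and in 1.55% and 2.94% of the windows. A match is a description of letters only.

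Libraries differed widely in depth, from 417107 to 596601 counts in peaks for NK cells, 979441 to 2358023 for T cells, 670358 to 4844441 for lymphomas and 1433904 to 9097014 for NKT cells. The 433 peaks took between 0.853% and 1.075% of the counts of a library. In the NK libraries 12.7% to 24.7% of all peaks had no count, so single peaks are less certain there than sums over a gene. Trp53, the gene named by the genotype, had accessibility of 55.2 to 108 CPM (counts scaled to the depth of the library) in the lymphomas against 35.7 to 46.7 in NKT, 49.9 to 68.5 in T and 21.2 to 58.1 in NK cells, and since the labels do not say which part was deleted this checks nothing. The 8 T cell markers summed to 182 to 306 CPM in the lymphomas, 587 to 616 in NKT, 335 to 456 in T and 217 to 256 in NK cells, where 4 of the 8 were at 0 in some library. The NK cell markers summed to 92.1 to 162 CPM in the lymphomas and 134 to 164 in NK cells, above NKT (28.4 to 39.3) and T cells (34.4 to 61.3). Markers of several cell types that the sorts should not hold were also more open in the lymphomas than in NKT cells: the 3 hepatocyte markers with a peak summed to 36.1 to 80.3 against 3.96 to 14.4 CPM, the 6 myeloid markers to 142 to 196 against 67.3 to 82, and the 3 B cell markers to 85.1 to 172 against 37.6 to 38.3. T cells were also below the lymphomas in these sums (13.6 to 24.1, 73.8 to 77.8 and 57.8 to 68.8), whereas NK cells overlapped them (20.5 to 63.2, 145 to 176 and 83.8 to 152). Endothelial and stromal markers summed to 142 to 238 CPM in the lymphomas, 99 to 116 in NKT, 140 to 180 in T and 136 to 261 in NK cells. Erythroid markers overlapped between lymphomas (34.7 to 67.7) and NKT cells (38.9 to 46). No marker sum was set against genes of like level. In the lowest of 20 level classes the median log2 fold change of all genes against NKT cells was 2.50. Alb, Apoa1, Ttr, Cd79a, Ms4a1, Csf1r, Adgre1 and Lyz2 had no peak in the table. The part of such cells in the differences below was not tested.

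Against NKT cells the chromatin regulators were more often less open than more open in the lymphomas. Counts were summed over all peaks of a gene and tested with edgeR's quasi-likelihood test over all 20326 genes, and a gene was called at a Benjamini-Hochberg adjusted p below 0.05. Of the 82 genes 9 were called higher and 25 lower, while 25.5% of all genes were called higher and 20.2% lower. Against T cells 13 were higher and 17 lower, beside 16.2% and 14.7% of all genes. Against NK cells 10 were higher and 13 lower, beside 11.2% and 10.3%. The median log2 fold change of the 82 genes was −0.27 against NKT, −0.09 against T and −0.03 against NK cells, where the medians of all genes were 0.06, 0.12 and 0.13. The 3 comparisons share the same 9 lymphomas. In sorted bulk cells, fewer cells with an open site and less opening per cell cannot be told apart. The balance of calls moved with the scaling: under cyclic loess it was 9 higher and 12 lower against NKT (13.6% and 11.9% of all genes) and 13 higher and 9 lower against T cells (11.9% and 11.8% of all genes), and with scaling inside each chromosome it was 5 higher and 12 lower against NK cells. The RLE size factors gave 29.2% of all genes higher and 14.7% lower against NKT cells and moved the median of all genes there from 0.06 to 0.19.

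The chromatin regulators were also more open than most genes. The 82 genes had a median level of 6.27 log2 CPM against 5.16 for all genes, 49 of them were among the 5082 genes with the highest levels, and they had a median of 3 peaks where all genes had 2. Their peaks were promoter peaks in 39.7% and intronic in 41.3% of cases, against 32.6% and 31.7% of all peaks. Among the 9 lymphomas their median SD was 0.35 log2 units against 0.44 for all genes, but 0.346 for genes of the same levels, and 43 of the 82 lay below the median SD of their level class. Fold changes of all genes ran with level: in the lowest of 20 level classes, at a median of 2.14 log2 CPM, the median change against NKT cells was 2.50, and in the highest class, at 7.49, it was −0.27. Set against genes of the same level, the median of the 82 genes was −0.03 against NKT, 0.01 against T and −0.03 against NK cells, and 34, 41 and 39 of them lay above the median of their class. By library, the median of the 82 genes against genes of the same level was below 0 in 9 of 9 lymphomas when set against the NKT mean (−0.154 to −0.0093), in 6 of 9 against T and in 4 of 9 against NK cells. Within each comparison all 9 lymphomas were set against the same normal mean, so these counts are not of independent values. Set against the median gene of their own chromosome, the genes had medians of −0.35, −0.14 and −0.21 against NKT, T and NK cells, a comparison that does not match the level.

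**Figure D1:**
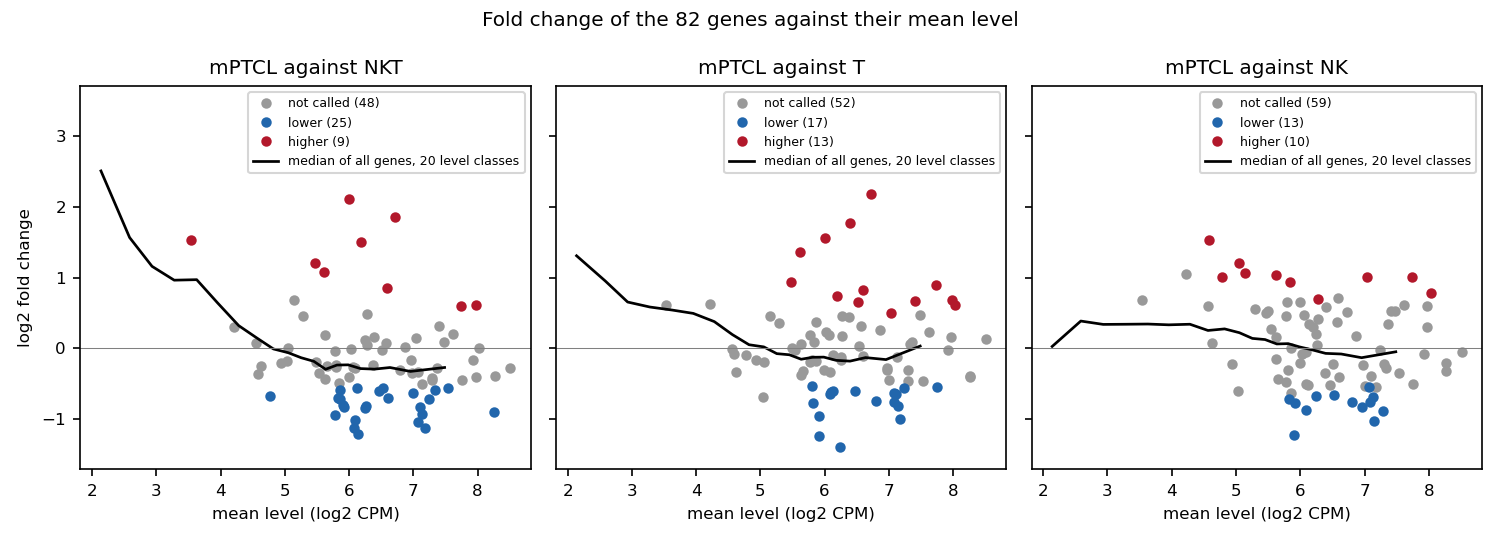
Each point is 1 of the 82 genes, placed by its mean level over all 18 libraries (log2 CPM, horizontal) and its log2 fold change of the lymphomas against NKT, T or NK cells (vertical); red and blue points were called higher and lower, and the black line joins the medians of all genes in 20 level classes. The line falls from 2.50 to −0.27 against NKT cells, and most of the 82 genes lie at the open end where it is below 0.

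Chromosomes carried a second shared difference. In all 9 lymphomas the median gene of chromosome 15 was more open than in the mean of the normal groups, by 0.80 to 1.59 log2 units, where the 9 normal libraries lay between −0.14 and 0.16. Chromosome 11 (0.39 to 0.92) and chromosome 5 (0.28 to 1.04) were higher in every lymphoma, chromosome 17 was higher in 8 of 9 (−0.03 to 0.83), and chromosomes 13 (−0.86 to −0.26), 16 (−0.91 to −0.16) and 10 (−0.47 to −0.13) were lower in every lymphoma. These values give accessibility counts, and copy number was not measured. Of the 6 genes on chromosome 15, Brd1, Hdac7, Kmt2d and Smarcd1 were called higher against NKT cells and these 4 and Arid2 against T cells, whereas Smarcd1 alone was called against NK cells and Hdac10 in none of the 3 comparisons. When libraries were scaled inside each chromosome, 0 of the 6 was higher in any of these comparisons, and Arid2 was called lower against NKT cells (−0.59). Kmt2d, a writer of H3K4 methylation at enhancers, is an example: its log2 fold change of 0.85 ± 0.26 (SE, adjusted p = 0.0097) against NKT cells became −0.04. Hdac7, a class II deacetylase known from thymocytes, turned from 0.61 ± 0.22 (adjusted p = 0.0231) to −0.29. Calls of Hdac7 and Kmt2d rested on few normal libraries: against NKT cells Hdac7 lost its call without any 1 of the 3 NKT libraries and Kmt2d without NKT 1 or NKT 3. On chromosome 5, likewise, Setd1b, Smarcd3, Kdm2b and Kmt5a were called higher against at least 1 group, 4 of them against T cells, and with the inner scaling Smarcd3 against NKT cells was the only such call left.

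Scaling inside each chromosome gave 6 genes higher and 29 lower against NKT cells, beside 23.9% and 18% of all genes under that scaling. Against T cells it gave 7 higher and 10 lower (12.8% and 12.7% of all genes), and against NK cells 5 higher and 12 lower (7.87% and 8.95%). Against NKT cells the calls made under both scalings were Arid3c, Chd5, Setdb1 and Smarcd3 among the higher genes and 19 of the 25 lower ones. Against T cells they were Chd5, Hdac11, Setd4 and Setdb1, with Chd1, Chd2, Hdac2, Kdm4c, Kmt5c, Setdb2 and Smarcal1 lower. Against NK cells they were Kdm1a, Kdm8 and Setd6, with Arid4b, Chd1, Chd9, Kdm3a, Kdm4c, Setd3, Smarca4 and Smarcal1 lower. For these and later counts of calls made under both scalings, the share of all genes is not given here.

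**Figure D2:**
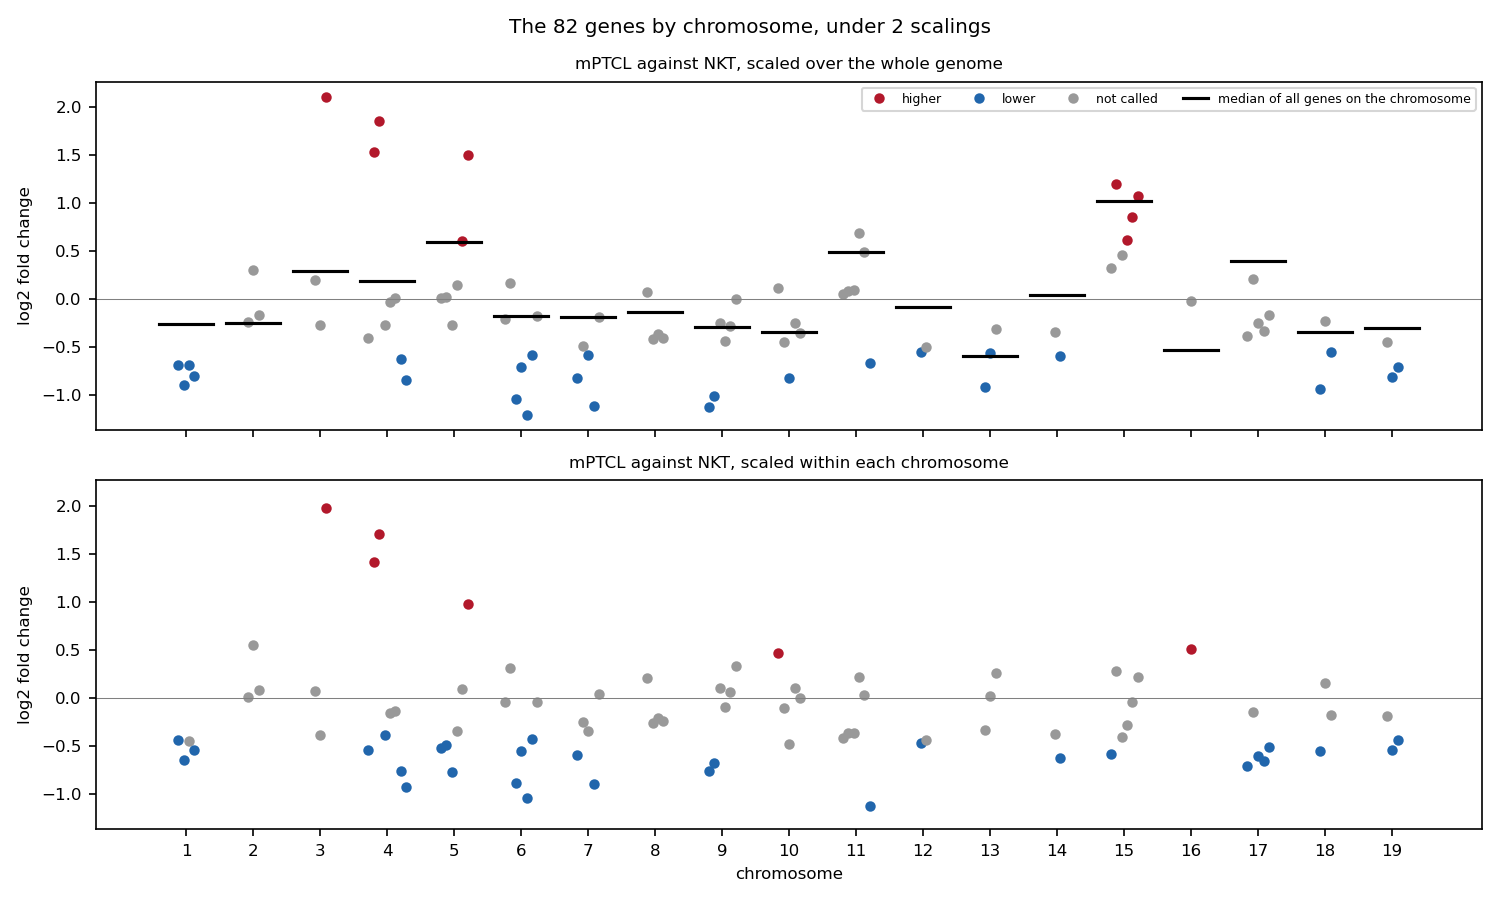
Log2 fold changes of the 82 genes in the lymphomas against NKT cells are plotted by chromosome, above with 1 scaling for the whole genome and below with scaling inside each chromosome; black bars are the medians of all genes on a chromosome, red and blue points were called higher and lower. The 4 red points on chromosome 15 sit around its bar near 1.02 and lose their call in the lower panel, where 29 genes are called lower.

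Genes called in the same direction against all 3 normal groups were 6 lower (Smarcal1, Kdm4c, Hdac2, Arid4b, Kdm3a and Kdm5b) and 2 higher (Setd1b and Smarcd1). Of all genes, 5.17% were lower and 3.73% higher in all 3. With scaling inside each chromosome the genes lower in all 3 were Arid1b, Chd1, Kdm4a, Kdm4c, Setdb2 and Smarcal1, and none was higher, where 3.63% of all genes were lower and 1.46% higher under that scaling. Smarcal1 and Kdm4c were therefore the 2 genes called in all 3 comparisons under both scalings. The share of all genes that met both is not given here, so this count cannot be read as a trait of these genes.

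Smarcal1 encodes an annealing helicase that rewinds single-stranded DNA at stalled replication forks, and its 1 peak covers the promoter printed above and carries no other symbol. Its accessibility in the 9 lymphomas ran from 31.8 over a median of 40.8 to 48.2 CPM. NKT libraries had 69.3, 73 and 68.6, T libraries 81.4, 85.3 and 69.2, and NK libraries 82, 60.3 and 136 CPM. Every lymphoma lay below every normal library. The log2 fold change was −0.80 ± 0.19 (SE, adjusted p = 0.00176) against NKT, −0.96 ± 0.20 (adjusted p = 0.000763) against T and −1.22 ± 0.21 (adjusted p = 0.000208) against NK cells, and scaling inside chromosome 1 left −0.55, −0.67 and −0.92, all called. Fitted as a single peak among all peaks, the same counts gave −1.11, −1.17 and −1.16. All 15 other genes within 1 Mb of it had a higher fold change than Smarcal1 in each comparison, with medians of 0.25, 0.21 and −0.03, so the drop was not shared by the neighbourhood. The calls against NKT and T cells were lost when every library was thinned to the shallowest depth, and the first also in the smaller deposited peak table.

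Kdm4c encodes a demethylase of H3K9 and H3K36. Its 1 peak, which also carries the symbol A230083N12Rik, had 32.7 to 67.3 CPM in the lymphomas (median 47.5), 102, 78.5 and 89.4 in NKT, 132, 158 and 104 in T and 55.4, 88.3 and 94.9 in NK libraries. Lymphomas and NK cells overlapped through NK 1, while the lymphomas lay wholly below NKT and T cells. The fold change was largest against T cells, at −1.39 ± 0.20 (adjusted p = 1.77e-05), and was −0.84 ± 0.20 (adjusted p = 0.00167) against NKT and −0.67 ± 0.23 (adjusted p = 0.0361) against NK cells. That last call was lost without mPTCL 4, NK 2 or NK 3.

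The other genes lower in all 3 comparisons depended more on the scaling. Hdac2, the class I deacetylase of the NuRD, Sin3 and CoREST complexes, had 25.1 to 57.1 CPM in the lymphomas (median 46.6) against 74.6, 72.1 and 69.8 in NKT, 99.4, 110 and 80.1 in T and 75.9, 56 and 75.9 in NK libraries, so that only NK 2 lay within the range of the lymphomas. Its fold changes of −0.82, −1.24 and −0.77 (adjusted p = 0.00412, 0.000194 and 0.0301) kept a call only against T cells once chromosome 10 was scaled on its own, and the call against NK cells was lost without NK 1 or NK 3. Arid4b, a subunit of the Sin3 corepressor, had 68 to 126 CPM (median 93.1) against 191, 185 and 177 in NKT, 186, 172 and 157 in T and 189, 198 and 209 in NK libraries, with no overlap. Its fold changes of −0.92, −0.82 and −1.03 (adjusted p = 0.000292, 0.00171 and 0.000443) lay close to those of its 9 neighbours within 1 Mb (medians −0.89, −0.90 and −1.0), and scaling inside chromosome 13 left a call against NK cells only. The fold changes of Arid4b also rest on a promoter peak shared with Ggps1. Genes that share a peak were not taken out of the neighbours, so part of this closeness can be built in. Without shared peaks the calls of Arid4b against T and NK cells were lost (−0.48 and −0.64). Kdm3a, a demethylase of H3K9, had 76.3 to 141 CPM (median 92.3) against 260, 169 and 176 in NKT, 151, 161 and 140 in T and 111, 194 and 188 in NK libraries. Against NKT cells it fell by 1.04 on the log2 scale (adjusted p = 0.000152) with no overlap, and against T and NK cells by 0.62 (adjusted p = 0.019) and 0.75 (adjusted p = 0.011) with overlap. The call against T cells was lost without T 1 or T 2, and in 5 of 11 alternatives, and that against NK cells without NK 2 or NK 3. Kdm5b, a demethylase of H3K4, had 30 to 54.7 CPM (median 39.9) against 56.7, 69.1 and 78.9 in NKT, 88.6, 64.4 and 64.6 in T and 98.4, 32.3 and 77.5 in NK libraries, and only NK 2 lay within the range of the lymphomas. Its fold changes of −0.69, −0.76 and −0.72 (adjusted p = 0.015, 0.0154 and 0.0485) all lost their call with scaling inside the chromosome. The call of Kdm5b against NK cells was kept in 5 of 18 fits that left out 1 library, that against NKT cells was lost without NKT 2 or NKT 3, and that against T cells without T 1.

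Setd1b and Smarcd1 were the genes called higher against all 3 groups, both on chromosomes that were more open as a whole. Setd1b, the catalytic subunit of an H3K4 methyltransferase complex, had 200 to 362 CPM in the lymphomas (median 261) against 201, 169 and 167 in NKT, 135, 125 and 176 in T and 197, 106 and 104 in NK libraries, and NKT 1 alone reached the lowest lymphoma. The fold changes were 0.60, 0.90 and 1.0 (adjusted p = 0.0194, 0.0026 and 0.00243), and 0.09, 0.42 and 0.50 with scaling inside chromosome 5, none of them called, and the call against NKT cells was lost without NKT 2 or NKT 3. Smarcd1, a SWI/SNF subunit that links the remodeller to transcription factors, had 53.6 to 84.2 CPM (median 63.1) against 34.3, 30 and 29.8 in NKT, 22.6, 32.5 and 22.2 in T and 45.1, 32.3 and 20.6 in NK libraries. All 9 lymphomas lay above all 9 normal libraries. Its fold changes of 1.08 ± 0.22, 1.36 ± 0.23 and 1.03 ± 0.26 (adjusted p = 0.000377, 0.000133 and 0.00524) stand beside medians of 1.36, 1.07 and 0.91 for its 74 neighbours within 1 Mb, and inside chromosome 15 they became 0.22, 0.52 and 0.33 with no call. The call against NK cells was lost without NK 3.

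**Figure D3:**
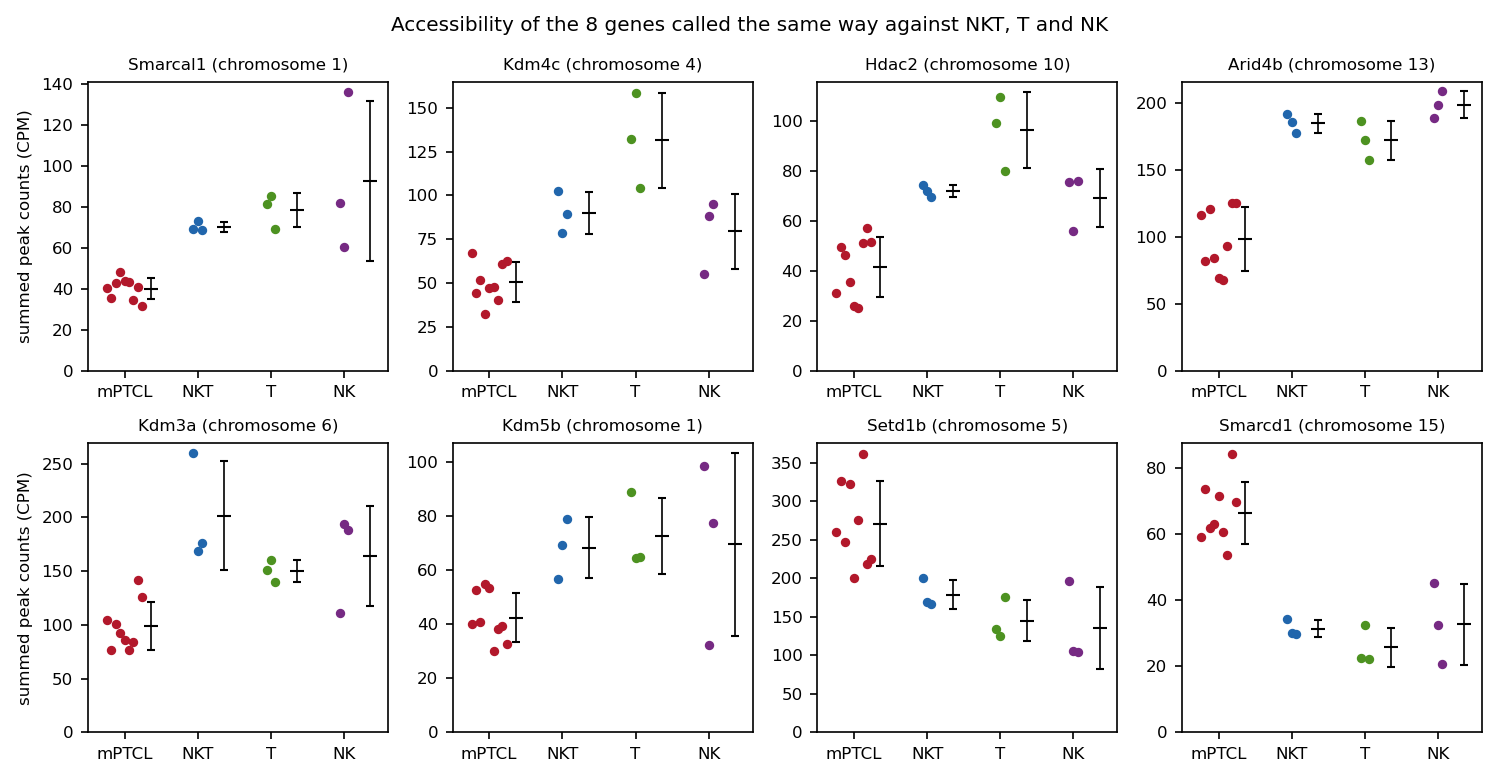
Accessibility summed over the peaks of a gene (CPM, vertical, from 0) is shown for each library of the 4 groups, with the mean and SD beside the points, for the 8 genes called the same way against NKT, T and NK cells with scaling over the whole genome. The lymphomas of Smarcal1 and Arid4b lie below, and those of Smarcd1 above, all 9 normal libraries; Arid4b, Setd1b and Smarcd1 lose some or all calls when scaled inside their chromosomes, as do Hdac2, Kdm3a and Kdm5b.

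Among the roles, the lysine demethylases form the largest list. Against NKT cells 0 of 15 were higher and 8 lower (Kdm3a, Kdm3b, Kdm4a, Kdm4c, Kdm4d, Kdm5a, Kdm5b and Kdm7a), with a median of −0.56. Relative to genes of the same level this median was −0.29. Of all genes, 25.5% were called higher and 20.2% lower against NKT cells. The same counts, 0 higher and 8 lower, came from scaling inside each chromosome (23.9% and 18% of all genes), with 6 calls shared. At an unadjusted p below 0.05 the main edgeR fit had 0 higher and 10 lower, and the share of all genes at that limit is not given here. In the other 10 alternatives, cyclic loess among them, edgeR, DESeq2 or limma called 0 higher and 4 to 8 lower. Promoter peaks covered 14 of the 15 genes and peaks with 1 symbol 13. Of all genes, those alternatives called 13.6% to 32.6% higher and 10.7% to 21.3% lower. Against T cells 1 was higher and 6 lower (16.2% and 14.7% of all genes), and against NK cells 3 were higher and 5 lower (11.2% and 10.3%). Kdm7a, an eraser of H3K9 and H3K27 methylation, had 36.1 to 62.8 CPM in the lymphomas (median 53) and 149, 106 and 120 in NKT, 79.6, 81.7 and 82.7 in T and 61.5, 43.1 and 25.3 in NK libraries. It fell by 1.21 ± 0.19 against NKT cells (adjusted p = 2.42e-05) and by 0.59 against T cells (adjusted p = 0.0252), and stood at 0.34 against NK cells (adjusted p = 0.339). Its lymphoma levels thus lay below NKT and T cells and overlapped NK cells. Kdm4d fell by 1.01 (adjusted p = 0.000443) and Kdm5a by 0.71 (adjusted p = 0.00395) against NKT cells, while Kdm5a was at 0.37 against T cells (adjusted p = 0.185). The call of Kdm7a against T cells was lost without any 1 of the T libraries, and those of Kdm3b and Kdm4a against NKT cells without NKT 2, or for Kdm4a NKT 1. Of 11 alternatives, the call of Kdm7a against T cells held in 6, that of Kdm4a against NKT cells in 5 and that of Kdm3b in 7. Kdm1a, the H3K4 demethylase also called Lsd1, had 17.7 to 52.2 CPM in the lymphomas (median 34.2) and 20.5, 15.1 and 9.49 in NK libraries, overlapping through NK 1. It rose by 1.21 ± 0.38 against NK cells (adjusted p = 0.0239), a call lost without NK 2 or NK 3. Kdm8 rose by 0.94 ± 0.28 (adjusted p = 0.0184), a call lost without NK 1 or NK 2, in the smaller peak table, with promoter peaks only and with peaks of 1 symbol.

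Among writers of histone methylation, the H3K4 methyltransferases had 2 of 8 higher (Setd1b and Kmt2d) and 1 lower (Kmt2b) against NKT cells, and the higher calls lay on chromosomes 5 and 15. Kmt2a, the gene known as MLL1, had 28.3 to 56.1 CPM and a fold change of −0.25 against NKT cells (adjusted p = 0.349), with no call in any lymphoma comparison. Of the other 10 SET genes 1 was higher and 4 lower against NKT cells, 3 and 2 against T cells, and 2 and 1 against NK cells. Beside both lists, the shares of all genes were 25.5% and 20.2% against NKT, 16.2% and 14.7% against T, and 11.2% and 10.3% against NK cells. Kmt5c, which writes the last methyl group of H4K20, had 63.4 to 131 CPM (median 102) against 255, 210 and 189 in NKT, 228, 195 and 177 in T and 203, 149 and 91.7 in NK libraries, and fell by 1.11 ± 0.20 (adjusted p = 0.000137) and 0.99 ± 0.21 (adjusted p = 0.00086) against NKT and T cells under both scalings. Setd6, which methylates the NF-kB subunit RelA, differed by the normal group: NK libraries had 8.2, 6.46 and 9.49 CPM, lymphomas 14.1 to 31.8, NKT 28.4, 28 and 34.2 and T cells 20.8, 27.5 and 26.3. The NK values rest on low counts of 4, 3 and 6. The fold change was 1.53 ± 0.39 against NK cells (adjusted p = 0.00575), called in all 11 other settings and without each library in turn, and −0.36 and −0.08 against NKT and T cells with no call. Kmt5a, which writes the first methyl group of H4K20, had 116 to 187 CPM (median 139) and NK libraries 86.1, 81.9 and 61.7, with no overlap and an increase of 1.0 ± 0.21 (adjusted p = 0.00124), and it lost its call with scaling inside chromosome 5. The call of Kmt2b against NKT cells held in 4 of 11 alternatives and was lost without any 1 of the NKT libraries, and that of Setd4 against T cells (0.65, adjusted p = 0.0283) without mPTCL 2, mPTCL 7 or any 1 of the T libraries.

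The remodellers gave a mixed record. Of 14 SWI/SNF subunits 2 were higher and 3 lower against NKT cells, 3 and 1 against T cells, and 3 and 1 against NK cells. For this and the lists that follow, the shares of all genes were 25.5% and 20.2%, 16.2% and 14.7%, and 11.2% and 10.3%. Arid1a, the subunit most often mutated in human tumours, had 179 to 435 CPM in the lymphomas, with no call with scaling over the whole genome, and was called lower against NKT cells inside chromosome 4 (−0.55). Smarca4, the ATPase also called Brg1, was lower against NK cells alone, by 0.87 ± 0.25 (adjusted p = 0.0129), and the call was lost without NK 2 or NK 3. Smarce1 was lower against NKT cells (−0.67, adjusted p = 0.0234) and higher against NK cells (1.0, adjusted p = 0.0361), since NK libraries had 8.2 to 15.8 CPM, lymphomas 17.2 to 32 and NKT cells 33 to 45.8. The call of Smarce1 against NKT cells was lost without NKT 2 or NKT 3, and that against NK cells without any 1 of the NK libraries or mPTCL 2, 3, 5 or 7. Of 10 CHD remodellers 1 was higher (Chd5) and 1 lower (Chd2) against NKT cells. Chd2 had 68.8 to 131 CPM against 181 to 210 in NKT and 166 to 171 in T cells, and fell by 0.83 (adjusted p = 0.000365) and 0.65 (adjusted p = 0.00568) with no overlap. The call against T cells was lost in the smaller peak table, with peaks of 1 symbol and after thinning. The 7 ARID genes outside SWI/SNF had 1 higher and 4 lower against NKT cells, led by Arid3b at −1.13 ± 0.18 (adjusted p = 4.11e-05, 38.2 to 65.3 against 98.1 to 127 CPM). Arid3c was the higher one, from low counts: 8.82 to 21.7 CPM in the lymphomas against 5.28, 4.53 and 4.98 in NKT cells (1.53 ± 0.48, adjusted p = 0.012), a change of 0.56 relative to genes of its level and a call lost under cyclic loess and without NKT 2 or NKT 3.

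Deacetylases and bromodomain genes were called in both directions, where 25.5% of all genes were higher and 20.2% lower against NKT cells, and 16.2% and 14.7% against T cells. Of 3 class I deacetylases, Hdac2 and Hdac3 were lower against T cells (the latter by 0.53, adjusted p = 0.0408, a call kept in 2 of 10 alternatives and lost without any 1 of the T libraries, mPTCL 4, NKT 2 or NKT 3), and Hdac1 was called in none of the lymphoma comparisons. Hdac4, a class II deacetylase, fell by 0.89 ± 0.15 against NKT cells (adjusted p = 4.89e-05, 200 to 299 against 420 to 530 CPM) and not against T or NK cells (−0.38 and −0.32). Among the 5 BET and other bromodomain genes Brd1 was higher and Brd8 lower against NKT cells, at 1.20 (adjusted p = 0.00361) and −0.94 (adjusted p = 0.000501). The 2 opposite-strand RNAs of the list, Brd3os and Kdm6bos, share their loci with Brd3 and Kdm6b, and open DNA cannot be assigned to a strand.

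Setdb1, Chd5, Hdac11 and Smarcd3 were among the largest increases and differed in how their neighbours behaved. Setdb1, which writes H3K9 methylation and silences endogenous retroviruses, had 29.9 to 245 CPM in the lymphomas with a median of 49.6, and 21.8, 18.5 and 22.9 in NKT, 30.7, 33.3 and 28.2 in T and 49.2, 66.8 and 56.9 in NK libraries. mPTCL 2 and mPTCL 5 held 232 and 245 CPM. The fold change was 2.1 ± 0.53 (adjusted p = 0.00258) against NKT, 1.56 ± 0.53 (adjusted p = 0.0267) against T and 0.65 (adjusted p = 0.411) against NK cells. Without these 2 libraries, left out after their values were seen, it was 1.15 (adjusted p = 0.00108), 0.60 (adjusted p = 0.0784) and −0.30 (adjusted p = 0.449). The 80 genes within 1 Mb moved with it, with median changes of 1.54, 1.38 and 0.71, and in mPTCL 2 and mPTCL 5 they stood 2.61 and 2.23 log2 units above the normal groups, against 1.16 in mPTCL 1 and 0.27 to 0.48 in the other 6. Setdb1's call against T cells was lost without mPTCL 5 or any 1 of the T libraries. Of its 13 peaks 9 were called higher against NKT cells. A promoter peak (chr3:95356903-95357403) was not among them: it had 8.36 to 71.4 CPM in the lymphomas (median 15.7), with the highest value in mPTCL 5, against 20.8, 16.4 and 16.2 in NKT libraries (0.43, adjusted p = 0.448). The calls of the gene against NKT and T cells were lost when promoter peaks alone were summed.

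Chd5, a remodeller best known from neurons and testis, was higher than its neighbours in every lymphoma. The lymphomas had 102 to 248 CPM (median 131) against 46.8, 38.1 and 40.4 in NKT, 27.1, 35.4 and 36.1 in T and 82, 138 and 94.9 in NK libraries. They lay wholly above NKT and T cells and overlapped NK cells. The fold change was 1.85 ± 0.27 (adjusted p = 1.09e-05) against NKT, 2.17 ± 0.28 (adjusted p = 6.07e-06) against T and 0.52 (adjusted p = 0.162) against NK cells, and the first 2 were called in all 11 other settings. The medians of its 21 neighbours were 0.04, 0.15 and 0.32. By library, the neighbours stood 0.63, 0.84 and 0.59 above the normal groups in mPTCL 5, 6 and 9, where Chd5 was also highest (1.44, 2.18 and 2.24), and between −0.35 and 0.16 in the other 6, where Chd5 stood at 0.96 to 1.37. Hdac11, the class IV deacetylase, was low in T cells: T libraries had 14.5, 44.1 and 30.4 CPM, lymphomas 71.8 to 141 (median 96.7), NKT 96.3, 90.4 and 87.4 and NK 71.8, 86.2 and 49. It was 1.76 ± 0.26 higher than in T cells (adjusted p = 2.59e-05) and at 0.17 and 0.58 against NKT and NK cells. Smarcd3, a SWI/SNF subunit of heart and muscle, had 59 to 130 CPM (median 87), against 28.6 to 36.5 in NKT, 47.9 to 61.6 in T and 64.8 to 82 in NK libraries. It rose by 1.5 ± 0.23 against NKT cells (adjusted p = 1.99e-05), where its 41 neighbours had a median of 0.50. Against T cells Smarcd3 rose by 0.74 (adjusted p = 0.0133), a call lost without T 1 or T 2.

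Over the 78 genes with at least 5 neighbours within 1 Mb, 56 lay below the median of their neighbours against NKT (71.8%), 51 against T (65.4%) and 50 against NK cells (64.1%). The median distance was −0.33, −0.12 and −0.15 log2 units. Neighbours that share a peak with a gene were kept, which can draw their values together. Of all genes in the 6 most open level classes, 74.7%, 69.9% and 65.8% lay below their neighbours. For the 53 chromatin regulators in the same classes the shares were 71.7%, 64.2% and 73.6%. These shares lay on both sides of those of all genes in these classes, which include the 53, and the differences were not tested. The median distance of the 53 genes was −0.38, −0.16 and −0.30 against NKT, T and NK cells. For all genes of these classes it was −0.28, −0.20 and −0.18.

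**Figure D4:**
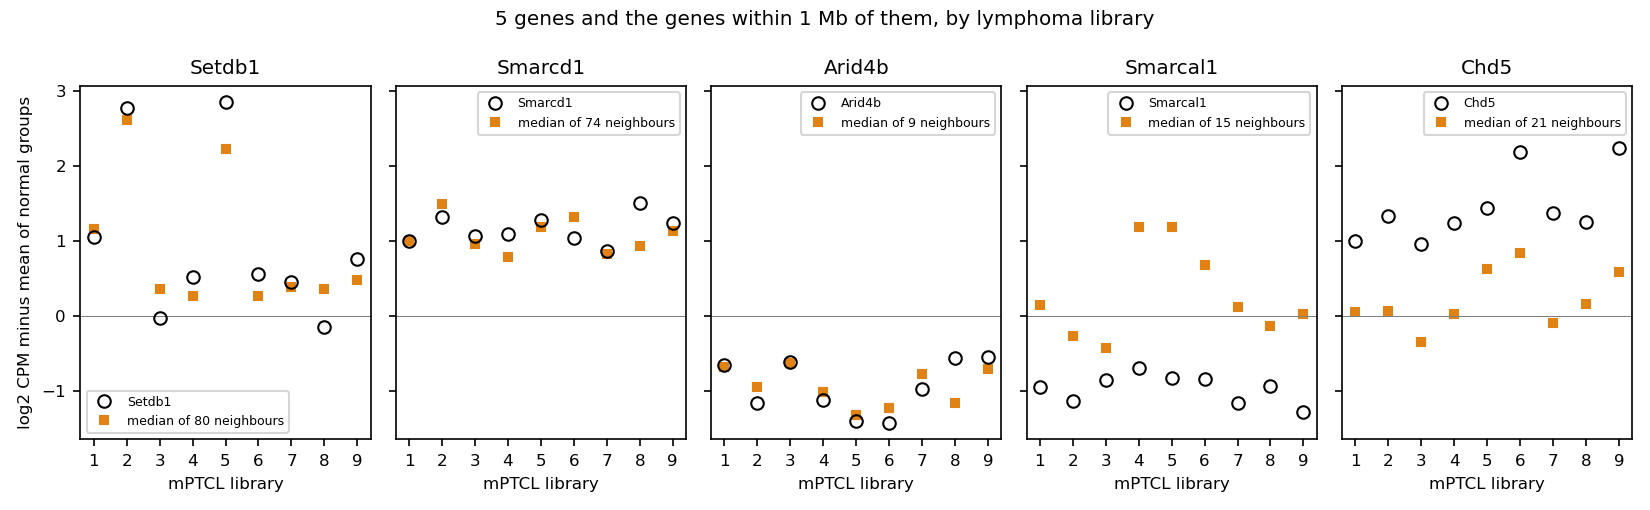
For 5 genes, the log2 CPM in each lymphoma minus the mean of the normal groups is plotted as an open circle, with the median of the other genes within 1 Mb as an orange square. Setdb1, Smarcd1 and Arid4b lie close to their neighbours in most libraries, Setdb1 with a jump in mPTCL 2 and 5 (2.61 and 2.23 for the neighbours), while Smarcal1 lies below and Chd5 above its neighbours in all 9.

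Single peaks showed larger changes than gene sums, in a fit with its own scaling. Fold changes from the 2 fits are therefore not directly comparable. Of the 433 peaks 67 were called higher and 113 lower against NKT cells, where 23.2% and 19.4% of all 61220 tested peaks were called. Against T cells 30 were higher and 60 lower (8.27% and 11.4% of all peaks), and against NK cells 27 and 18 (6.03% and 3.76%). Of the 172 promoter peaks 11 were higher and 65 lower against NKT cells, beside 12.3% and 30.3% of all promoter peaks. In all 3 comparisons at once 12 peaks (2.77%) were lower and 1 (0.231%) higher, where 1.95% and 0.813% of all peaks were. The lower ones belong to Arid1b, Arid4a, Arid4b, Chd6, Chd7, Chd9 (2 adjacent peaks), Hdac4, Kdm1b, Kdm3a, Smarca2 and Smarcal1, and the higher one to Chd5.

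Against NKT and NK cells the largest fall was at Chd9, a remodeller of the CHD7 subfamily, in a promoter-class peak at chr8:90955082-90955582. The lymphomas had 0.531 to 3.83 CPM (median 2.34), and NKT libraries 17.6, 18.6 and 19.6, T libraries 20.2, 13 and 16.8 and NK libraries 39.4, 14.8 and 9.52. No lymphoma reached the lowest normal library. The log2 fold changes were −3.35 ± 0.46 (adjusted p = 2.09e-06), −3.19 ± 0.49 (adjusted p = 2.08e-05) and −3.52 ± 0.53 (adjusted p = 6.23e-05) against NKT, T and NK cells, and each was called in 23 of 23 other settings, among them leaving out each library. The peak that begins at 90954571, just before it, was lower by 3.05, 2.28 and 1.96. Summed over all 6 peaks of Chd9 the change was −0.42, −0.46 and −0.88, and the sum was called against NK cells only (adjusted p = 0.00494).

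Arid1b, a SWI/SNF subunit with 28 peaks, held both directions. Its intronic peak chr17:5238682-5239182 had 0.389 to 9.57 CPM in the lymphomas (median 2.01) against 12.8, 26.1 and 33.4 in NKT, 33, 24.2 and 20.6 in T and 29, 10.5 and 17.4 in NK libraries, with no overlap and changes of −3.09, −3.15 and −2.71, each called in 23 of 23 other settings. At chr17:5295688-5296188 T cells stood apart, with 72.4, 38.1 and 37.9 CPM against 0 to 15.7 in the lymphomas and 1.6, 11.7 and 11.6 in NKT libraries, and NK libraries had 31.1, 0 and 3.17. The peak chr17:5252512-5253012 had 248 counts over the lymphomas and 0 in NK cells, at least 5.21-fold higher when 3 counts over the NK group are taken as the floor, a call lost without NK 3. Chd7, the CHARGE syndrome remodeller, lost an intronic peak (chr4:8783105-8783605) with 0 to 6.54 CPM in the lymphomas against 12.8, 21.2 and 21 in NKT, 12.8, 21.6 and 16.4 in T and 24.9, 0 and 12.7 in NK libraries. Its changes were −2.85, −2.72 and −2.29, and the call against NK cells, where 1 library was at 0, was lost under cyclic loess and without NK 1 or NK 3.

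Smarca2, the second SWI/SNF ATPase, had 3.12 to 14.4 CPM in the lymphomas (median 8.34) in the intronic peak chr19:26646186-26646686, against 32.8, 33.3 and 29.7 in NKT, 30.9, 14.7 and 17.3 in T and 24.9, 31.6 and 19 in NK libraries, all of them higher. The changes were −1.85, −1.22 and −1.49 (adjusted p = 0.000234, 0.0279 and 0.0243). A strongly open promoter peak of Hdac4 (chr1:92180210-92180710) had 79.1 to 122 CPM (median 106) against 307, 223 and 216, 219, 177 and 191, and 197, 160 and 159 in NKT, T and NK libraries, and fell by 1.29, 0.95 and 0.76 (adjusted p = 1.65e-06, 0.000285 and 0.00853). Arid5b, a cofactor of the demethylase Phf2, had 0 to 6.54 CPM in the intronic peak chr10:68105230-68105730 against 12, 21.7 and 18.4 in NKT and 14.9, 16.4 and 23.4 in T cells, while NK libraries had 8.29, 0 and 0. That peak fell by 2.86 and 2.93 against NKT and T cells. A second intronic peak of Arid5b (chr10:68153844-68154344) had 0.573 to 5.61 CPM in the lymphomas (median 1.39) and 23.4, 23.4 and 17.8 in T cells, a change of −3.41 ± 0.54 (adjusted p = 3.82e-05).

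The peak of Chd5 that was higher against all 3 groups lies in a promoter-class region at chr4:152340950-152341450. Lymphomas had 11.5 to 28.4 CPM (median 23.3), NKT libraries 1.6, 1.97 and 3.01, T libraries 4.26, 3.46 and 3.74, and the 3 NK libraries had no count. It rose by 3.07 ± 0.50 (adjusted p = 2.61e-05) and 2.37 ± 0.51 (adjusted p = 0.00137) against NKT and T cells. Against NK cells it was at least 10.4-fold higher, from 494 counts against 0 with the floor of 3 counts. In sum over all peaks Chd5 did not pass the test against NK cells, so its peaks differed among themselves: 7 of 14 were called higher against NKT, 6 against T and 1 against NK cells. Peaks with 0 counts in NK cells were also seen in Setd1b (chr5:123144568-123145068, at least 7.60-fold), Kdm2b (chr5:122925278-122925778, at least 5.79-fold) and Kmt5a (chr5:124444592-124445092, at least 3.38-fold). All 3 lie on chromosome 5, and the call of the Kmt5a peak was lost without NK 2 or NK 3. In Arid2 the intronic peak chr15:96377222-96377722 had 3.71 to 61.3 CPM in the lymphomas against 2.13, 0 and 2.34 in T cells, a change of 3.75 ± 0.84 (adjusted p = 0.00179). The flanking peak of Hdac11 (chr6:91153558-91154058) had 35 to 66.7 CPM in the lymphomas and 50.4, 66 and 62.3 in NKT cells, against 1.07, 6.92 and 13.1 in T and 20.7, 29.5 and 3.17 in NK cells.

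**Figure D5:**
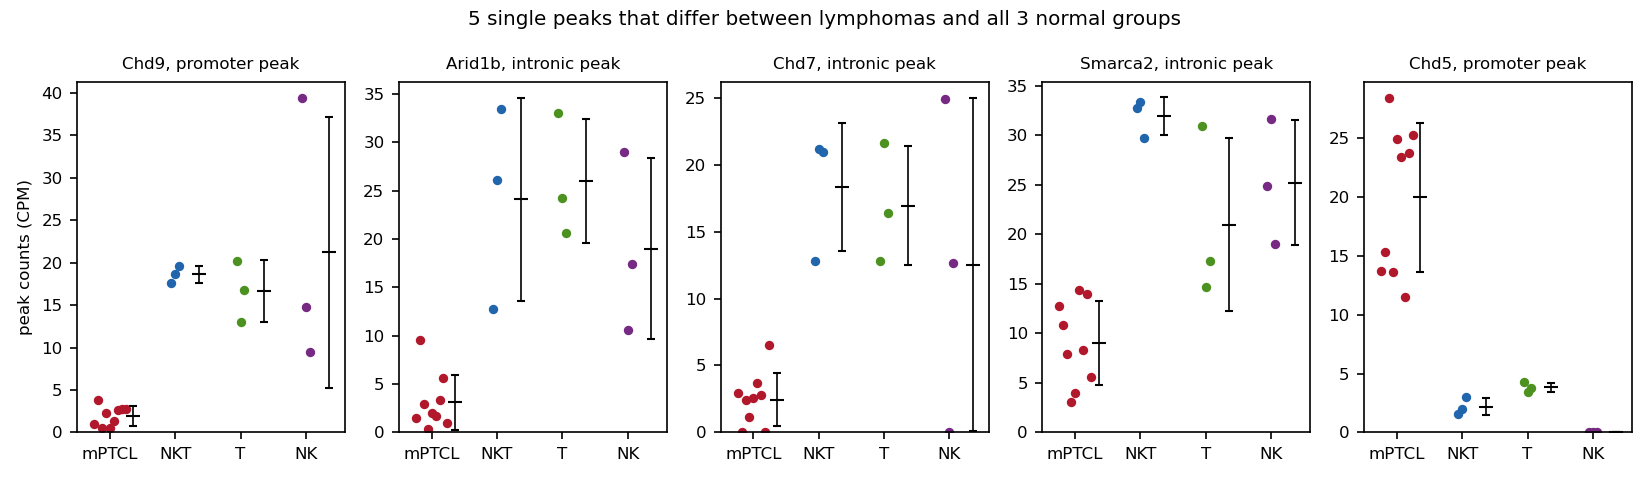
Counts of 5 single peaks (CPM, vertical, from 0) are shown for each library of the 4 groups with mean and SD beside the points. The lymphomas lie below nearly all normal libraries at Chd9, Arid1b, Chd7 and Smarca2, with 1 NK library at 0 for Chd7, and above all of them at Chd5, where the 3 NK libraries are at 0.

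The normal groups differed among themselves in fewer of these genes in the fit of all 18 libraries. A fit of the 9 normal libraries alone called more of them higher: 6 for NK against NKT, 8 for NK against T and 7 for NKT against T cells. With a block for the replicate number, these libraries gave fewer higher calls in each comparison, as listed at the end. The shares of all genes called in these fits are not given here, so the rise cannot be read as particular to these genes. NK cells were higher than NKT cells in 2 genes and lower in 9, beside 8.51% and 6.28% of all genes. Against T cells NK cells were higher in 2 and lower in 2 (3.29% and 2.19% of all genes). NKT cells were higher than T cells in 2 and lower in 0 (2.32% and 2.23% of all genes) by edgeR, where 2 were lower at an unadjusted p below 0.05 and DESeq2 called 1. All of these 17 calls were also made with scaling inside each chromosome. Chd5 was higher in NK cells than in NKT cells (1.33) and T cells (1.65), and Smarcd3 higher than in NKT cells (1.20). Setd6 was lower in NK cells than in NKT and T cells (−1.89 and −1.61, from the low NK counts given above), as was Kdm7a (−1.55 and −0.93). Smarce1 (−1.67), Kdm8 (−1.42), Kdm4d (−0.96), Kmt5a (−0.85), Kdm2b (−0.78) and Hdac4 (−0.58) were lower in NK than in NKT cells. Hdac11 was higher in NK (1.18) and NKT cells (1.60) than in T cells, and Kdm5a higher in NKT than in T cells (1.08). Chd5, Smarcd3, Setd6, Kdm7a and Hdac11 thus differed between the lymphomas and at least 1 normal group and also between normal groups.

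Other chromatin genes without one of the chosen symbols were counted in 6 lists of 108 genes, and the counts below are given against NKT, T and NK cells in that order. Of all genes, 25.5% were higher and 20.2% lower, 16.2% and 14.7%, and 11.2% and 10.3%. The 18 other methyltransferases had 0 higher and 8 lower against NKT, 0 and 5 against T, and 1 and 3 against NK cells, led by Nsd3, a writer of H3K36 (−1.28 against NKT, adjusted p = 9.76e-07). The 10 acetyltransferases had 0 higher and 4 lower, 1 and 2, and 1 and 2. Crebbp fell by 1.20 (adjusted p = 6.82e-05) and Hat1 by 1.07 (adjusted p = 9.17e-05) against NKT cells. The 24 Polycomb genes had 4 higher and 5 lower, 5 and 6, and 7 and 3, with Cbx6 at 1.28 (adjusted p = 0.000342), Jarid2 at −1.19 (adjusted p = 1.68e-05) and Pcgf5 at −1.18 (adjusted p = 2.17e-05) against NKT cells. Cbx6 lies on chromosome 15, and no Polycomb gene was called higher against NKT cells with scaling inside the chromosome. The 21 sirtuins and corepressors had 3 higher and 9 lower, 2 and 3, and 2 and 2. The 27 remodeller subunits had 5 higher and 6 lower, 4 and 2, and 3 and 2, with Bcl11a at 3.23 (adjusted p = 0.000148). The 8 genes of DNA methylation had 1 higher and 2 lower, 0 and 1, and 1 and 1, with the demethylating enzyme Tet3 at −0.92 (adjusted p = 0.000382) against NKT and −0.84 (adjusted p = 0.00179) against T cells.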

How the data were processed

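Open chromatin was measured by ATAC-seq in 9 mPTCL, 3 T, 3 NKT and 3 NK libraries of 10000 sorted cells. The authors deposited raw counts per peak for each library, for 2 sets of 61224 and 27727 peaks, each peak 500 bases long, with gene symbols and a peak class. Log2 CPM values were also deposited per the file headers and were not used for tests. Per the submitters' processing notes, MACS2 2.1.2, bedtools and edgeR 3.24.3 were used and the build was mm10. For the aligner, the duplicate filter and any Tn5 shift, the tool or setting is "not given in the sources used here", and it is not stated whether peak starts count from 0 or 1. All 18 libraries entered through their own columns.

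Counts were summed over all peaks that carry a symbol, and 10.5% of peaks carry at least 2. All 20326 genes passed the filter on low counts (filterByExpr), the 82 genes included. edgeR 4.0.16 (R 4.3.3, limma 3.58.1, data.table version 1.17.8) fitted 1 quasi-likelihood model of 4 groups with TMM scaling (residual df 14, biological coefficient of variation 0.297 for genes and 0.431 for peaks), with Benjamini-Hochberg adjustment over all genes, or over 61220 tested peaks. SE is the log2 fold change divided by the square root of F, and log2 CPM used a prior count of 2. Gene and peak fits have their own TMM factors, so a gene with 1 peak has different values in each. The gap was not small for Smarcal1 against NKT and T cells, as its values above show. Matched level means 20 classes of mean level, and scaling inside each chromosome means TMM on that chromosome's genes. Precision follows depth, from 417107 to 9097014 counts per library. The scripts were tested on simulated data.

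Alternatives were RLE factors, library totals, cyclic loess with limma, a mean count of at least 20, DESeq2 1.42.0, the smaller peak set, promoter peaks only, peaks with 1 symbol, thinning to 417107 counts, and leaving out each library. The main fit holds no block for the replicate numbers of the normal groups, and whether these numbers pair libraries is not settled. Figures used Python 3.11.15 and matplotlib 3.10.9.

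The genes and lists were chosen with earlier results of these data known. Any of the 82 genes could be named. Full statistics went to called genes with the largest changes, up to 8 per direction and comparison, library values to those called alike in all 3 comparisons, and peaks were named up to 5 per direction and comparison. Of other lists up to 3 genes were named. Further genes and peaks named for their place between groups were chosen after their values were seen. Results for a few genes are not reported here.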

Additional observations from a re-analysis of the deposited data

Results flagged for a closer look

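In 9 of the 82 genes 1 lymphoma library stood apart from the other 8 by more than the 95% limit of Dixon's gap test, which chance alone passes in about 1 in 20 groups. Only the 82 genes were put to this test. The share over all genes is therefore not known, and the count cannot be read as a trait of these genes. Arid1a was high in mPTCL 6, at 8.766 log2 CPM, where the other lymphomas had 7.492 to 8.137. mPTCL 9 was high in 2 remodeller ATPases: Smarca5 at 6.494 (others 5.551 to 6.003) and Smarcad1 at 5.886 (others 4.09 to 4.997). mPTCL 2 was low in Arid3a at 5.732 (others 6.135 to 6.507), Kdm5a at 5.119 (5.656 to 6.007) and Kdm7a at 5.201 (5.599 to 5.988). mPTCL 4 was low in Brd3 at 5.52 (6.09 to 6.658) and Chd3 at 5.287 (6.085 to 6.795), and mPTCL 5 was low in Smarcd2 at 5.827 (6.278 to 6.734).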

How the results depend on the processing

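Directions turned for these genes. With scaling inside each chromosome, the log2 fold change against NKT cells became −0.59 for Arid2, 0.020 for Brd9, −0.29 for Hdac7, −0.53 for Kdm2b, −0.50 for Kmt2c, −0.044 for Kmt2d and 0.51 for Setd4, and against T cells −0.22 for Arid2, −0.20 for Hdac7 and −0.038 for Kmt2d. Promoter peaks alone gave 0.069 for Smarce1 against NKT and 0.30 for Arid5b against T cells. Peaks with 1 symbol gave 2.46 for Chd6, 0.87 for Kmt2b and 1.08 for Setd3 against NKT, and 1.83 for Chd6 against T cells. Under cyclic loess the Setdb1 peaks starting at 95327006 and 95330023 stood at −0.22 and −1.21 against NKT cells. The causes were not tested.

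The counts of called genes moved by over 1.5 times as follows, with the share of all genes called in the same setting in brackets. Against NKT cells the main fit called 20.2% of all genes lower. Lower calls were 12 under cyclic loess (11.9%), 13 in the smaller table (10.7%), 16 with promoter peaks (13.5%) and 14 after thinning (11.3%). The share of all genes thus fell as well. Against T cells, where the main fit called 16.2% higher and 14.7% lower, higher calls were 7 inside chromosomes (12.8%) and 8 with 1 symbol (14.3%). Lower calls were 9 under loess (11.8%), 10 inside chromosomes (12.7%), 8 in the smaller table (10.1%), 10 with promoter peaks (12.4%) and 6 after thinning (11%). Against NK cells, where the main fit called 11.2% higher and 10.3% lower, higher calls were 16 under loess (16.5%) and 5 inside chromosomes (7.87%). Lower calls were 6 with 1 symbol (8.1%). The median at matched level was −0.12 (1 symbol) and −0.084 (thinned) against NKT and 0.030 (promoter peaks) against NK cells. For NK against NKT, higher and lower calls were 4 and 5 under loess (6.78% and 7.56%), 1 and 3 in the smaller table (5.18% and 3.55%), 0 and 2 with promoter peaks (5.11% and 3.37%) and 4 and 4 after thinning (5.84% and 2.91%). Lower calls there were 5 under RLE (3.73%), 5 with the stricter filter of mean count 20 (4.73%) and 14 inside chromosomes (8.32%). For NK against T, higher and lower calls were 4 and 1 under RLE (3.81% and 1.56%) and with the stricter filter (3.89% and 1.82%). They were 4 and 0 in the smaller table (2.94% and 1.49%) and after thinning (3.28% and 1.21%), and 0 and 1 with promoter peaks (1.8% and 1.22%). There were 5 higher under loess (4.35%) and under DESeq2 (5.74%), and 1 lower with library totals (2.08%). For NKT against T, higher and lower calls were 4 and 1 inside chromosomes (3.14% and 3.11%). There was 1 lower under DESeq2 (4.58%) and 1 higher with promoter peaks (0.561%) and after thinning (1.13%).

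Leaving out each library gave 5 to 10 higher and 18 to 30 lower calls against NKT, 4 to 14 and 8 to 19 against T, and 4 to 10 and 6 to 15 against NK cells. The shares of all genes called in these fits are not given here. Higher calls fell to 5 without NKT 3, to 4, 5, 7 and 8 without T 2, T 1, T 3 and mPTCL 2, and to 4 and 5 without NK 3 and NK 2. Lower calls fell to 8 and 9 without T 1 and T 2, and to 6 and 8 without NK 3 and NK 2. Medians at matched level ran from −0.093 to −0.018, −0.058 to 0.034 and −0.067 to 0.035. For NK against NKT the range was 2 higher and 4 to 13 lower, for NK against T 1 to 3 and 0 to 4, and for NKT against T 1 to 2 and 0.

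Same-numbered normal libraries deviated together little (correlations −0.065 to 0.10). With 3 libraries per group this cannot tell whether equal numbers mark libraries made together. Among the 9 normal libraries a replicate block gave 5 higher and 10 lower for NK against NKT, 4 and 3 for NK against T and 2 and 1 for NKT against T. Without the block, these libraries alone gave 6, 8 and 7 higher, and 1 lower for NKT against T. The shares of all genes called with and without the block are not given here. Depth limits single peaks most in NK cells.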
